A study of Mus musculus with 12 samples.

Results

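Isolated canonical-signal poly(A) sites are clusters of RNA 3' ends that carry the standard polyadenylation signal at the usual distance and have no other listed cluster nearby on their strand. They were taken from a catalogue of poly(A) site clusters in mouse embryonic stem cells, in mm9 coordinates. A cluster was a member if its listed hexamer was the canonical signal, if that hexamer lay 15 to 30 nt from the cluster, and if the gap to every other cluster of its chromosome and strand, measured between edges, was more than 2000 nt on both sides. The mitochondrial chromosome was left out. By this rule 21639 of 145179 clusters were members, 14.9% of the 145099 nuclear ones.

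All groups shared the Exosc3 CKO genotype, a conditional knockout in clones made from V6.5 cells. The protein belongs to the core of the RNA exosome, which degrades RNA from its 3' end. Exosc3 was kept in cells grown with doxycycline (dox+, 0.1 μg/ml) and lost in those grown without it (dox-). The labels gave 12 libraries in 6 groups of 2, which were dox+ and dox- cells at 3 days, and dox+ and dox- cells at 2 days that received either a Scr AMO (a scrambled antisense morpholino oligonucleotide) or a U1 AMO at 15 μM by nucleofection 8 hours before collection. Polyadenylated RNA ends were read by 2P-seq, which sequences from the poly(A) tail. The catalogue had 7 columns and 0 of them held a value of a library, so the depth per library is unknown and no site could be set against doxycycline or AMO treatment.

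Cleavage and polyadenylation ends most messenger RNAs of animals. The cleavage and polyadenylation specificity factor binds a hexamer upstream of the cleavage site, and CstF binds a U-rich or GU-rich element downstream of it. Many genes use several such sites in tandem, and others use a single one. U1 snRNP, which recognises 5' splice sites, also protects nascent transcripts from premature cleavage and polyadenylation.

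The signal that chose the members, and the variant used below for comparison, were listed as these hexamers.
canonical signal: AATAAA
main variant: ATTAAA

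The canonical signal was listed at 15 to 30 nt for 51959 nuclear clusters, which divide by position into 3 classes. The 21639 isolated sites made up 41.6% of them. A further 11471 (22.1%) had a cluster within 2000 nt upstream and none downstream, and are called terminal sites. The other 18849 (36.3%) had a cluster within 2000 nt downstream, and are called upstream sites. Seen from the other side, members were 45.7% of all 47378 isolated clusters of any or no hexamer. Of the members, 20847 lay on the 19 autosomes, 756 on the X chromosome, 3 on the Y chromosome and 33 on unplaced pieces. The plus strand held 10970 members and the minus strand 10669.

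No library replicates stand behind these values. Shares are given with a 95% Wilson interval, which covers counting error only and treats sites as independent, although neighbouring sites are not. Means are given with the SD over the 19 autosomes, and each difference was tested by flipping its sign at random on each autosome, a 2-sided permutation test. Autosomes are not biological replicates, so these p-values measure how evenly a difference held over the genome and not how it would repeat in other cultures.

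The isolated sites were narrow clusters. Their median width was 7 nt, with quartiles at 2 and 13 nt and a 95th percentile of 30 nt. Terminal sites had a median of 12 nt with quartiles at 5 and 22 nt, and upstream sites a median of 15 nt with quartiles at 7 and 27 nt. Cluster width is the stretch over which the listed 3' ends of a site were spread. The isolated sites led the other classes at each width up to 60 nt, as the cumulative curves show.

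**Figure D1:**
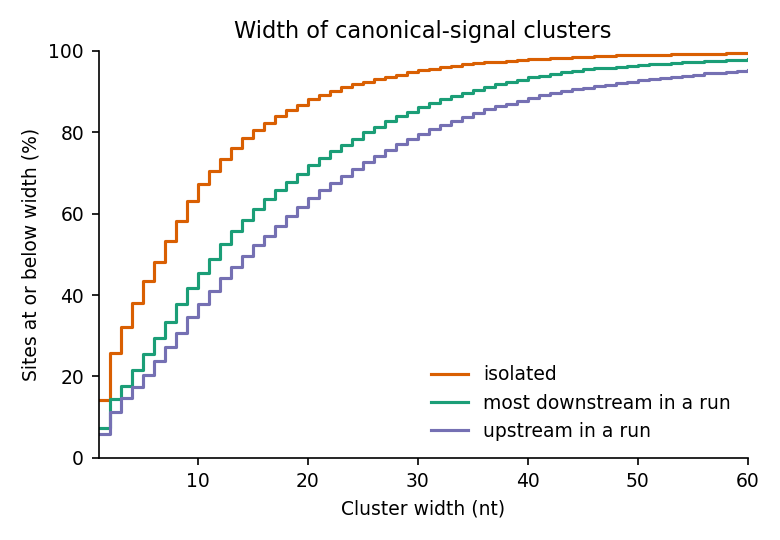
Percentage of canonical-signal clusters (y axis) at or below each cluster width in nt (x axis), with a line each for isolated, terminal (most downstream in a run) and upstream sites. At 10 nt the curves stand at 67.2% of isolated, 45.3% of terminal and 37.8% of upstream sites.

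Mean log2 width was 2.55 ± 0.092 (SD over 19 autosomes) for isolated sites, 3.33 ± 0.095 for terminal sites and 3.64 ± 0.074 for upstream sites. Isolated sites were lower than terminal sites by a log2 difference of -0.77 ± 0.091 (SD, n = 19), on 19 of 19 autosomes (permutation test, adjusted p = 1.71e-05), the smallest adjusted value that the 24 planned comparisons gave. Against upstream sites the log2 difference was -1.09 ± 0.081, again on 19 of 19 (adjusted p = 1.71e-05, permutation test). Both differences were many times their spread over autosomes.

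Clusters 1 nt wide hold 3' ends that all fell on 1 position. They made up 14.2% of isolated sites (3078 sites, interval 13.8 to 14.7%), 7.28% of terminal sites (interval 6.82 to 7.77%) and 5.97% of upstream sites (interval 5.64 to 6.32%). The share was higher in isolated than in terminal sites by 7.10 percentage points ± 1.61 (SD, n = 19), and higher than in upstream sites by 8.34 ± 1.13, each on 19 of 19 autosomes (permutation test, adjusted p = 1.71e-05). At the other end, 11.9% of isolated sites were wider than 20 nt (interval 11.5 to 12.4%), against 28.1% of terminal sites (interval 27.3 to 29.0%) and 36.3% of upstream sites (interval 35.6 to 37.0%). No read numbers were listed, so width could not be set against the depth of a site.

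Read by width, the share of canonical sites that stood alone fell step by step. It was 61.1% of the 5038 sites 1 nt wide (interval 59.7 to 62.4%) and 57.9% of those 2 nt wide. It was 51.2% at 3 to 10 nt, 36.3% at 11 to 20 nt (interval 35.4 to 37.1%), 22.1% at 21 to 50 nt and 11.4% above 50 nt (interval 10.04 to 12.8%). The 3 widest members lay on chromosome 12 (minus strand) from 73185379 to 73185626 (248 nt), on chromosome 8 (minus strand) from 131208600 to 131208827 (228 nt) and on chromosome 2 (plus strand) from 29904910 to 29905065 (156 nt). Their signals were listed at 27, 22 and 20 nt. The genes at these positions were not analysed here, since the gene table used here is of another assembly.

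The width went on falling as the sites stood further apart. The nearest same-strand cluster of a member lay at a median of 8541.5 nt, with quartiles at 3860.2 and 24628.5 nt. Members with that gap at 2 to 5 kb (7264 sites) had a median width of 8 nt and a mean log2 width of 2.68 ± 0.13 (SD over 19 autosomes). At 10 to 20 kb (3459 sites) the median was 7 nt and the mean 2.59 ± 0.15, and above 100 kb (1617 sites) the median was 5 nt and the mean 2.18 ± 0.20. Members with a gap above 20 kb were narrower than those at 2 to 5 kb by a log2 difference of -0.33 ± 0.14, on 19 of 19 autosomes (permutation test, adjusted p = 1.71e-05).

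The fall was steeper on the other side of the 2000 nt limit. Canonical sites with a neighbour within 0.1 kb (7199 sites) had a median width of 21 nt and a mean log2 width of 4.17 ± 0.081, and those with the nearest neighbour at 1 to 2 kb (5964 sites) had 9 nt and 2.92 ± 0.13. The limit of 2000 nt therefore fell within a gradient and marked no step. The share 1 nt wide ran from 3.53% (interval 3.13 to 3.98%) in the closest of these sites to 12.6% (interval 11.8 to 13.4%) in members at 2 to 5 kb and 20.5% (interval 18.6 to 22.6%) in members above 100 kb.

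**Figure D2:**
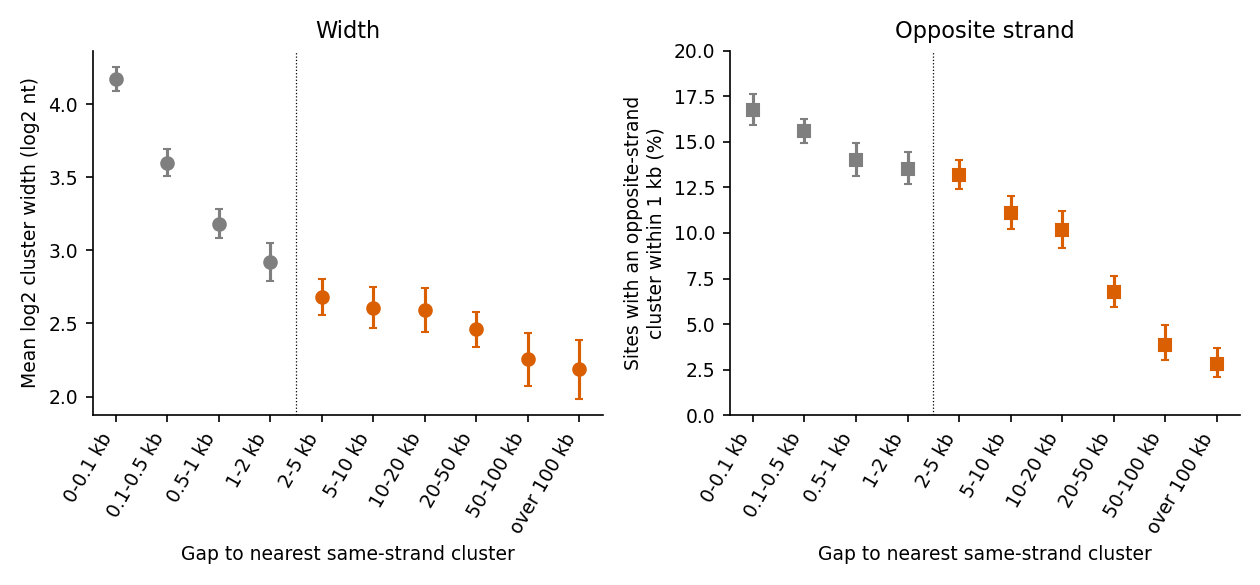
Mean log2 cluster width (left, log2 nt, bars are the SD over 19 autosomes) and percentage of sites with an opposite-strand cluster within 1 kb (right, bars are 95% Wilson intervals), by the gap to the nearest same-strand cluster. Grey points are canonical sites in runs and orange points, right of the dotted line, are isolated sites. Width falls from 4.17 to 2.18 and the opposite-strand share from 16.8% to 2.78%.

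The rule fixed the signal at 15 to 30 nt, so only its place within that range is described. Whether the listed distance starts at an edge, the middle or some other position of a cluster is unknown. The classes differed in width, and whether this bears on the distance differences below was not tested. It was most frequent at 19 nt, with 2888 members, followed by 2715 at 20 nt and 2458 at 21 nt. The median was 21 nt and the quartiles 19 and 24 nt in all 3 classes. At 18 to 22 nt lay 55.1% of isolated sites (interval 54.4 to 55.8%), 55.1% of terminal sites (interval 54.2 to 56.0%) and 53.1% of upstream sites (interval 52.4 to 53.8%). At 19 nt alone lay 13.3% of isolated, 11.7% of terminal and 11.3% of upstream sites.

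The mean distance was 21.4 nt ± 0.0802 (SD over 19 autosomes) in isolated sites, 21.5 ± 0.135 in terminal sites and 21.7 ± 0.118 in upstream sites. Isolated sites had it closer than upstream sites by a difference of -0.324 nt ± 0.135, on 19 of 19 autosomes (permutation test, adjusted p = 1.71e-05). At 23 to 30 nt were 34.0% of isolated and 37.7% of upstream sites, with a difference of autosome means of -3.52 percentage points ± 2.20, below 0 on 18 of 19 (permutation test, adjusted p = 5.25e-05). This last range was chosen after the profile had been seen. The size of these differences followed the window allowed for the signal. Against upstream sites the mean difference was -0.129 nt at 17 to 27 nt and -1.23 nt at 10 to 35 nt, and the difference in the share at 23 to 30 nt was -6.70 percentage points with the wider window.

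Against terminal sites the difference in mean distance was small, at -0.138 nt ± 0.163, below 0 on 15 of 19 autosomes (permutation test, adjusted p = 0.00108). It was -0.0313 nt (adjusted p = 0.394, permutation test) when the signal was required at 17 to 27 nt, and -0.947 nt (adjusted p = 1.41e-05, permutation test) when it was allowed at 10 to 35 nt. At 15 nt, 3.25% of isolated sites (704) had their signal, against 1.73% of terminal and 1.63% of upstream sites. Over autosomes isolated exceeded terminal sites there by 1.43 percentage points ± 0.857, on 19 of 19 (adjusted p = 3.5e-05, permutation test), and this distance too was picked from the profile. Isolated sites were 58.2% (interval 55.4 to 60.9%) of the 1210 canonical sites at 15 nt, but 45.2% at 16 nt and 39.6% at 17 nt.

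**Figure D3:**
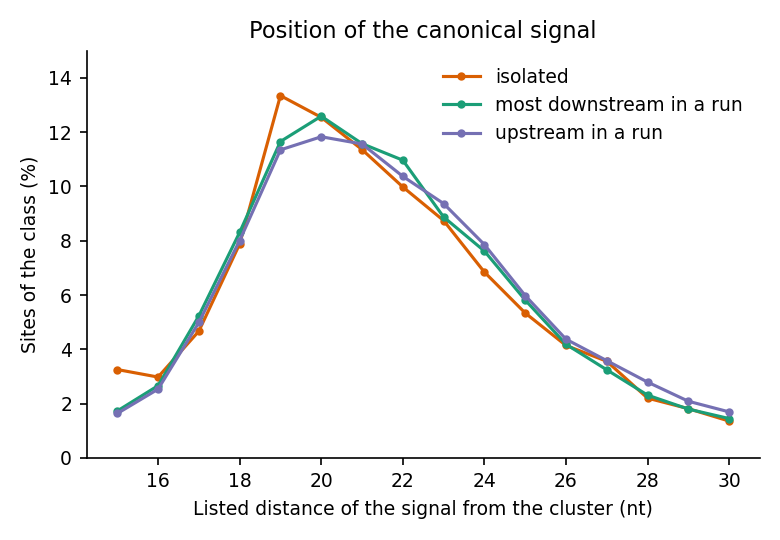
Percentage of the sites of each class (y axis) with the canonical signal listed at each distance from 15 to 30 nt (x axis), for isolated, terminal (most downstream in a run) and upstream sites. The isolated line is highest at 19 nt, at 13.3%, and stands above the others at 15 nt.

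The edges of the distance window can be set beside their neighbours. Just inside, the canonical signal of an isolated cluster was listed at 15 nt for 704 and at 30 nt for 293 clusters. Just outside, it was listed at 14 nt for 377 and at 31 nt for 221 isolated clusters, which were not members. Closer still, at 11 nt, 1818 of 2409 clusters with the canonical hexamer were isolated (75.5%, interval 73.7 to 77.1%), and they enter the wider window of 10 to 35 nt. At the gap limit, 1872 canonical sites had their nearest neighbour at 2001 to 2500 nt and were members, and 2470 had it at 1501 to 2000 nt and were not. Examples just inside were the sites on chromosome 2 (minus strand) from 156685672 to 156685682 and on chromosome 7 (plus strand) from 49949285 to 49949301, each with a gap of 2001 nt and widths of 11 and 17 nt. Just outside, with gaps of 2000 nt, were sites on the minus strand of chromosome 4 at 131904074 and of chromosome 6 at 125433717, each 1 nt wide.

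Within the members, width and distance were related only weakly. Members 1 nt wide had a mean distance of 21.3 nt ± 0.212 and those wider than 20 nt had 21.6 ± 0.283, a difference of -0.259 nt ± 0.342, below 0 on 16 of 19 autosomes (permutation test, adjusted p = 0.00355). On the plus strand alone it was -0.156 nt (adjusted p = 0.228, permutation test), and with the signal at 10 to 35 nt it was -0.861 nt (adjusted p = 0.000379, permutation test). Over all members the mean distance was 21.36 nt at 1 nt wide, 21.57 nt at 21 to 50 nt and 21.35 nt above 50 nt. The median width was 8 nt where the signal lay at 15, 16 or 17 nt, and 5 nt at 19 nt, the lowest. It was 7 nt at 23 nt and 10 nt at 30 nt.

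Other isolated sites gave a comparison under the same gap limit, though not at equal gaps. The median gap to the nearest same-strand cluster was 8541.5 nt for members and 7370 nt for isolated ATTAAA sites. For isolated clusters without a hexamer it was 6126 nt. The contrasts of members with these sites were not matched on that gap. Isolated clusters with the variant signal ATTAAA at 15 to 30 nt (6117 sites) had a median width of 6 nt, and 16.3% of them were 1 nt wide (interval 15.4 to 17.3%). The canonical members were wider by 0.24 ± 0.073 on the log2 scale, on 19 of 19 autosomes (permutation test, adjusted p = 1.71e-05). Their signal lay closer, by a difference of -0.234 nt ± 0.155 from a mean of 21.6 nt ± 0.137 for the variant (adjusted p = 3e-05, permutation test). That difference was -0.116 nt with the signal at 17 to 27 nt and -1.18 nt at 10 to 35 nt. At 15 to 17 nt were 10.9% of canonical members (interval 10.5 to 11.3%) and 6.83% of isolated variant sites (interval 6.23 to 7.49%).

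Isolated clusters without a listed hexamer (2738 sites) were more spread in width than the members. Of them 24.98% were 1 nt wide (interval 23.4 to 26.6%) and 18.4% were wider than 20 nt (interval 16.97 to 19.9%), both more than the 14.2% and 11.9% of members. The difference of mean log2 width, 0.14 ± 0.15 in favour of the members (adjusted p = 0.000353, permutation test), joined these opposite tails. It turned to -0.23 when clusters 1 nt wide were left out (adjusted p = 1.77e-05, permutation test).

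Members spread over the genome in step with all poly(A) sites. Autosomes held 8.76 members per Mb ± 1.68 (SD, n = 19), measured over the span from the first to the last listed cluster. The lowest density was 6.50 per Mb on chromosome 3 and the highest 12.6 per Mb on chromosome 11. Across the 19 autosomes this density followed that of all listed clusters with a Pearson correlation of 0.973 and a Spearman correlation of 0.961, given as a description, since members are part of all clusters. Without chromosomes 11 and 19, the densest, Pearson's value was 0.959.

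The share of canonical sites that were isolated stayed within a narrow range, though the intervals of its extremes did not overlap. It was 41.6% ± 1.74 (SD, n = 19), with the lowest value of 38.9% (interval 36.9 to 40.9%) on chromosome 13 and the highest of 45.8% (interval 43.6 to 48.1%) on chromosome 15. It had a Pearson correlation of only 0.0821 and a Spearman correlation of 0.20 with the density of clusters over autosomes. The X chromosome had few clusters, 26.02 per Mb against 43.2 to 93.9 per Mb on the autosomes. Of its canonical sites 44.4% were isolated (interval 42.0 to 46.8%). The plus strand had 41.8% ± 2.50 isolated and the minus strand 41.4% ± 2.28, with a difference of 0.423 percentage points ± 3.29 that was not detectable over autosomes (adjusted p = 0.612, permutation test).

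**Figure D4:**
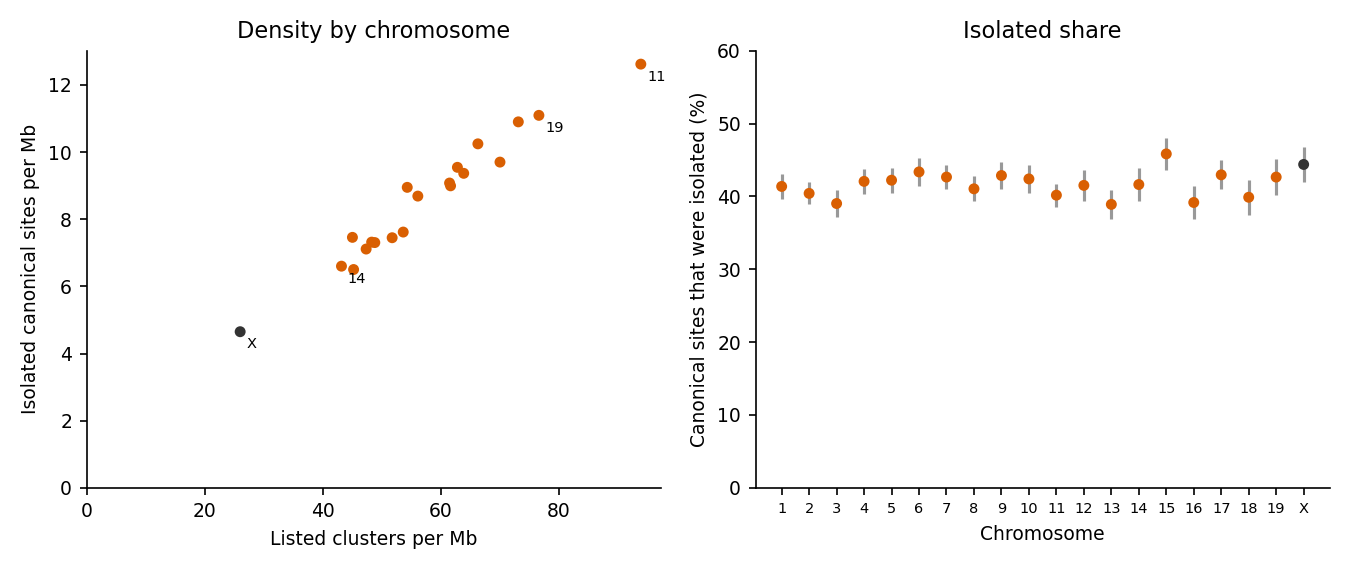
Isolated canonical sites per Mb against all listed clusters per Mb (left), and the percentage of canonical sites at 15 to 30 nt that were isolated, with 95% Wilson intervals (right), for autosomes 1 to 19 (orange) and X (black). Density varies from 6.50 to 12.6 per Mb over autosomes, while the isolated share stays between 38.9% and 45.8%.

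Along a strand, the members leaned towards their upstream neighbour. The median gap was 16819.5 nt to the next cluster upstream and 20858.5 nt to the next one downstream. The rule bounds both gaps from below alike. The upstream gap was the smaller for 11560 members and the downstream gap for 10048. The difference of mean log2 gaps, upstream minus downstream, was -0.23 ± 0.074, below 0 on 19 of 19 autosomes (permutation test, adjusted p = 1.71e-05). It was -0.369 when isolation was set at 1000 nt, -0.078 at 5000 nt and -0.61 among sites with no absent identifier, so its size depended on the limit. Isolated clusters without a hexamer had the opposite order, with medians of 14953 nt upstream and 9602 nt downstream, and isolated ATTAAA sites had nearly equal ones, 15911 and 15860 nt. Those orders were not tested against that of the members.

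The neighbours on the 2 sides also carried different signals. The canonical signal at 15 to 30 nt was listed for 47.4% of the next clusters upstream (interval 46.7 to 48.0%) and for 41.0% of the next clusters downstream (interval 40.3 to 41.6%). Over autosomes the difference was 6.44 percentage points ± 1.20, on 19 of 19 (adjusted p = 1.71e-05, permutation test). No hexamer was listed for 5.43% of upstream and 8.68% of downstream neighbours, which over autosomes was a difference of -3.12 percentage points ± 1.23, below 0 on all 19 (permutation test, adjusted p = 1.71e-05). Most of these neighbours, 65.6% upstream and 67.5% downstream, were themselves isolated. Among the isolated ones, the canonical shares were 47.7% upstream and 46.4% downstream. A neighbour within a run is by position the most downstream cluster of that run if it lies upstream of the member. If it lies downstream, it is the most upstream one. Whether place in a run bears on the contrast was not tested. The contrast varied with the gap. At 2 to 5 kb the canonical shares were 42.9% upstream (interval 41.5 to 44.3%) and 42.8% downstream (interval 41.2 to 44.4%), while above 50 kb they were 49.4% (interval 48.2 to 50.7%) and 41.2% (interval 40.0 to 42.4%).

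Some members followed each other. The neighbour was itself a member for 6767 pairs of consecutive sites, 31.3% of the neighbours on each side, and 2135 members (9.87%) had members on both sides. Among neighbours that were isolated, 47.7% upstream and 46.4% downstream were members. That was near the 45.7% of all isolated clusters that were members, so these counts show no marked tendency of members to follow each other. The longest string was of 10 consecutive members, on chromosome 15 (minus strand) from 4937750 to 5131241, with a mean gap of 21486.2 nt between them. It was picked for its length and carries no test. The members farthest from any same-strand cluster lay on the minus strands of chromosome X at 26271454, with gaps of 1878170 and 3045811 nt, of chromosome 5 at 10331748, with 2147077 and 1168475 nt, and of chromosome 14 from 93001593 to 93001597, with 1282396 and 1148499 nt. The first 2 were 1 nt wide and the last 5 nt, against a median of 7 nt among all members.

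The opposite strand was not used by the rule, and it was also emptier around isolated sites. A cluster on the opposite strand lay within 1 kb of 9.88% of members (interval 9.49 to 10.3%), 14.2% of terminal sites (interval 13.6 to 14.9%) and 15.7% of upstream sites (interval 15.2 to 16.2%). Over autosomes isolated sites were lower than terminal sites by a difference of -4.25 percentage points ± 2.26, on 18 of 19, and than upstream sites by -5.81 ± 2.05, on 19 of 19 (adjusted p = 1.71e-05 each, permutation test). Among sites with no absent identifier, whose numbers follow directly on those of listed clusters, both differences turned, to 7.02 percentage points (adjusted p = 0.0228) and 16.8 (adjusted p = 4.2e-05, permutation test). This choice favours sites with a listed cluster close by. Of member intervals up to 2 kb 53.1% held no absent number, against 4.06% above 50 kb. By the rule, a cluster within 2 kb of a member is on the opposite strand. How far this choice of sites bears on the turn was not tested. The median gap to the nearest opposite-strand cluster was 13269 nt for members, against 8213 nt and 7619 nt. Of the members, 18007 (83.2%) were alone on both strands within 2000 nt, and 10599 (49.0%) within 5000 nt.

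Members with more room on their own strand also had fewer opposite-strand clusters. The share with one within 1 kb was 13.2% at a same-strand gap of 2 to 5 kb (interval 12.4 to 13.99%), 10.1% at 10 to 20 kb and 2.78% above 100 kb (interval 2.09 to 3.70%). Between members above 20 kb and those at 2 to 5 kb the difference was -7.64 percentage points ± 2.60, on 19 of 19 autosomes (permutation test, adjusted p = 1.71e-05). Among sites with no absent identifier, a choice with the same limit, it was -0.739 (adjusted p = 0.941, permutation test). Across autosomes the share followed the density of clusters, from 4.98% on chromosome 12 to 14.4% on chromosome 17, with a Pearson correlation of 0.843 and a Spearman correlation of 0.875 (n = 19, as a description). The share was 9.83% ± 2.42 for members and 10.4% ± 3.25 for isolated clusters without a hexamer, and the difference of -0.538 percentage points ± 3.38 was smaller than its spread over autosomes (adjusted p = 0.535, permutation test).

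The side on which the nearest opposite-strand cluster lay depended on how near it was. A partner downstream of a member means that the ends of both transcripts face each other without overlapping, as where genes converge tail to tail. A partner upstream means that transcripts towards each other would overlap at their 3' ends, or that the transcripts run apart, and the catalogue cannot tell these apart. Among the 3361 members with the nearest partner within 2 kb and no overlap, 51.8% had it downstream (interval 50.1 to 53.5%). Over autosomes the log2 ratio of downstream over upstream partners was 0.039 ± 0.37, above 0 on 14 of 19 (adjusted p = 0.652, permutation test). That balance was the sum of opposite leanings at different separations.

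At 1 to 50 nt, 82 of 232 partners lay downstream (35.3%, interval 29.5 to 41.7%). At 101 to 200 nt it was 154 of 214 (72.0%, interval 65.6 to 77.6%), and at 201 to 500 nt 302 of 489 (61.8%, interval 57.4 to 66.0%). At 1501 to 2000 nt it was 285 of 675 (42.2%, interval 38.6 to 46.0%), and at 2001 to 5000 nt 1247 of 2897 (43.0%, interval 41.3 to 44.9%). Nearest partners thus lay mostly upstream when close, mostly downstream when somewhat farther off, and mostly upstream again when distant. Each site enters only the range of its nearest partner, so 50% need not mark balance at the farther separations. The same limit holds for all classes. The order of sides was not particular to members. In terminal sites the downstream share was 28.3% at 1 to 50 nt, 56.8% at 201 to 500 nt and 42.5% at 2001 to 5000 nt. In upstream sites it was 44.4%, 61.7% and 46.9% at these separations.

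These ranges were chosen after the counts had been seen, so their tests describe only how even the leanings were. For the farther ranges, 50% need not mark balance, as given above. At 101 to 500 nt the autosome mean was 64.4% ± 8.79 downstream, above 50% on 17 of 19 autosomes and exactly 50% on the other 2 (adjusted p = 4.67e-05, permutation test). At 1501 to 5000 nt it was 42.3% ± 3.62, below 50% on 18 of 19 (adjusted p = 3.5e-05, permutation test). At 1 to 50 nt it was 37.0% ± 19.5, below 50% on 14 of 19 (adjusted p = 0.0132, permutation test), and the difference from 50% was -4.24 percentage points on the minus strand alone (adjusted p = 0.555, permutation test). A pair in which both sites are members counts for each of them, and 228 such pairs had each site downstream of the other, at a median gap of 839 nt, while 212 were the other way round, at 1154.5 nt.

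**Figure D5:**
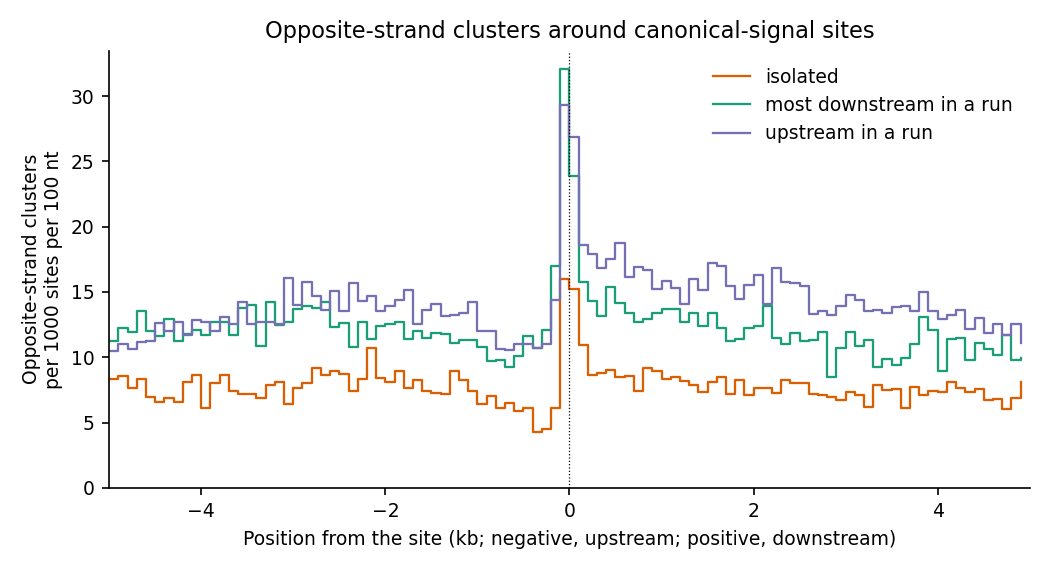
Opposite-strand clusters per 1000 sites in bins of 100 nt (y axis) by position from the site in kb (x axis, negative upstream, positive downstream), for isolated, terminal (most downstream in a run) and upstream sites. Around isolated sites the bins nearest the site reach 15.99 and 15.3, and the profile drops to 4.30 at 300 to 400 nt upstream and lies between 7.44 and 9.15 at 200 to 1000 nt downstream.

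All opposite-strand clusters, and not only the nearest, were also counted. Up to 200 nt there were 11.1 per 1000 members per 100 nt upstream and 13.1 downstream. At 200 to 1000 nt there were 5.86 upstream and 8.64 downstream, and at 1000 to 2000 nt 7.95 and 7.93. The sides thus differed at 200 to 1000 nt and were level at 1000 to 2000 nt, where the nearest partners had leaned upstream from 1501 nt on. At 2000 to 3000 nt there were 8.596 upstream and 7.47 downstream. Terminal sites had higher densities, of 10.5 and 13.7 at 200 to 1000 nt and of 12.8 and 11.4 at 2000 to 3000 nt.

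The range of 51 to 500 nt was also chosen after the counts had been seen. Within it, the nearest partners lay downstream of 64.4% ± 8.01 of the members concerned and of 51.7% ± 8.41 of terminal sites. The difference was 12.6 percentage points ± 12.8, positive on 17 of 19 autosomes (permutation test, adjusted p = 0.000378), and 6.64 on the plus strand alone (adjusted p = 0.0856, permutation test). Against upstream sites, with 60.5% ± 6.42, it was 3.84 ± 9.13 (adjusted p = 0.0852, permutation test). Over all separations up to 2 kb, the downstream share of members exceeded that of isolated clusters without a hexamer, 39.6% ± 6.29, by 11.1 percentage points ± 6.69, on 18 of 19 autosomes (permutation test, adjusted p = 3e-05).

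Partners on the downstream side carried the canonical signal more often. Of the nearest opposite-strand clusters within 2 kb, 47.1% of 1740 downstream partners had it at 15 to 30 nt (interval 44.7 to 49.4%), against 40.5% of 1621 upstream partners (interval 38.1 to 42.9%). The difference of autosome means was 6.70 percentage points ± 8.80, positive on 14 of 19 (permutation test, adjusted p = 0.00526). It was 5.51 on the minus strand alone (adjusted p = 0.0596, permutation test). No hexamer was listed for 6.61% of downstream partners (interval 5.53 to 7.87%) and 11.9% of upstream ones (interval 10.4 to 13.6%). Members themselves were 27.4% of downstream and 27.3% of upstream partners, so the sides differed in signal and not in this.

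Some members nearly touched a cluster of the other strand. With a gap of 1 nt to a cluster downstream were the sites on chromosome 5 (plus strand) from 144061046 to 144061048, on chromosome 7 (plus strand) from 20364319 to 20364324 and on chromosome 10 (minus strand) from 81481280 to 81481289. With a gap of 1 nt to one upstream were the sites on chromosome 3 (minus strand) from 103768452 to 103768460, on chromosome 8 (plus strand) from 24281749 to 24281767 and on chromosome 14 (plus strand) from 60204601 to 60204603. Of these 6 partners, the canonical hexamer was listed for 1, the partner of the site on chromosome 8. A further 271 members (1.25%, interval 1.11 to 1.41%) overlapped or abutted an opposite-strand cluster, against 2.47% of terminal sites (interval 2.20 to 2.77%).

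Isolation was judged on the listed clusters, and many numbers were absent from the series of cluster identifiers. Identifiers of clusters with a hexamer rose along each chromosome without exception and reached 441682, while 129467 (29.3%) were listed. Clusters without a hexamer had numbers of their own, which reached 190619 with 15712 (8.24%) listed. If numbers were given before clusters were left out, the absent numbers count unlisted clusters between listed ones, of either strand. Between a member and the listed hexamer clusters before and after it, a median of 6 numbers was absent (quartiles 3 and 10), over a median of 27.2 kb. For terminal sites it was 3 over 7.86 kb, and for upstream sites 2 over 1.89 kb.

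At least 1 number was absent beside 95.7% ± 0.766 of members and 87.6% ± 1.38 of terminal sites, a difference of 8.12 percentage points ± 1.38, on 19 of 19 autosomes (permutation test, adjusted p = 1.71e-05). The intervals of members are longer, which leaves more room for absent numbers. At like lengths above 2 kb the order was reversed. In intervals of 2 to 5 kb a mean of 2.04 numbers was absent beside members, 2.24 beside terminal sites and 2.89 beside upstream sites, and in intervals of 10 to 20 kb 3.63, 4.17 and 5.21. In intervals up to 2 kb it was 1.01 beside members and 0.816 and 0.858 beside the others, which per 10 kb of interval was 11.95, 12.04 and 15.03. These means carry no test.

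The 936 members with no absent number on either side (4.33%, interval 4.07 to 4.61%) have listed hexamer clusters next to them in the numbering, although unlisted clusters without a hexamer may lie between. The width difference held among such sites, in a comparison added after the data had been seen. There, isolated sites were narrower than terminal sites by a log2 difference of -0.77 ± 0.34 and than upstream sites by -1.13 ± 0.26 (adjusted p = 4.2e-05 each, permutation test). The fall of width from 2 to 5 kb to above 20 kb was -0.12 ± 0.53 in them (adjusted p = 0.406, permutation test). It rested on 454 sites at 2 to 5 kb and 121 above 20 kb.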

How the data were processed

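The authors' deposited catalogue gives, for each cluster, its coordinates, its strand, a hexamer and the distance to it in nt, with no normalization. Per the submitters' processing notes, Trimmomatic, STAR and bedtools and the mm9 build were used. How ends were joined into clusters, which were kept and how hexamers were searched are not given in the sources used here. The starting position of the listed hexamer distance is not given either. Without a genome or gene table of that build, sites are given by position.

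Width was end minus start, and starts are printed counted from 1. Gaps were measured between cluster edges, and sides were assigned by midpoints. Differences over 19 autosomes were tested by sign flips (100000 resamples, seed 1, smallest possible p 1e-05) with Benjamini-Hochberg adjustment over 24 comparisons, or over 7 for those chosen after profiles were seen. The members, comparisons and alternatives were chosen with earlier results of these data known. Regions named were the 3 most remote, the 3 widest, the 3 with the closest opposite-strand cluster on each side, and the 2 on each side of the gap limit. Any other was chosen after its values were seen.

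The neighbour search was tested on simulated data, with 0 wrong gaps in 1500 sites. The sign-flip test called 4% of 1000 sets without a difference at p under 0.05. A width difference planted in 31943 sites was recovered within 0.021 on the log2 scale. Software was numpy 2.4.6 and pandas 2.3.3 under Python 3.11.15, with scipy 1.17.1 for statistics and matplotlib 3.10.9 for plots.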

Additional observations from a re-analysis of the deposited data

How the results depend on the processing

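Of 31 comparisons, 15 kept their direction and their side of the 0.05 threshold in every alternative run with a test, and their direction when autosomes were pooled, which gave a value with no test, among them all 4 of the width and the 1 nt share between isolated, terminal and upstream sites (log2 width -0.87 to -0.60 and -1.14 to -0.89). Alternatives were either strand alone, other gaps, signal windows, opposite-strand windows and widths, neighbours with a hexamer only, pooled autosomes and, added later, both ends counted from 1 and sites without absent identifiers. The planned shortening of clusters by 1 nt leaves widths of 0 and was not run. No paired analysis was possible because the file holds no value per library, so leaving out replicates could not be run either. The causes of the changes below were not tested.

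On the plus strand alone, the distance difference between members 1 nt and over 20 nt wide was -0.156 nt, and the side difference at 51 to 500 nt was 6.64 points against terminal sites and -1.87 against upstream sites. On the minus strand alone, width against sites without a hexamer was 0.11, the partner signal difference 5.51 points, the side at 1 to 50 nt -4.24 points from 50% and the side difference from upstream sites 8.70. With an isolation gap of 1000 nt the last was -1.80. With 5000 nt it was 7.12, the log2 side ratio -0.074, the side against terminal sites -0.505 points, the partner signal 5.07, the distance by width -0.26 nt and the side at 1 to 50 nt -8.07. With the signal at 17 to 27 nt, the distance was -0.0313 nt against terminal sites and -0.117 nt by width. Width against sites without a hexamer was -0.23 without clusters 1 nt wide and -0.043 with hexamer neighbours only, where the opposite-strand difference from them was -1.67 points. With opposite-strand windows of 0.5 kb (1 kb for sides) that difference was 0.713, the log2 side ratio 0.35 and the side against terminal sites 6.18. With 5 kb they were -3.10 and -0.18 for the first 2.

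Among sites without absent identifiers, the opposite-strand share within 1 kb was higher in isolated sites, by 7.02 points than in terminal and 16.8 than in upstream sites, and the side against terminal sites was -19.7 points. Of these members 71.8% had an opposite-strand cluster as a neighbour in the numbering, against 57.2% of such terminal and 16.03% of such upstream sites (64.7%, 47.3% and 26.1% among all sites). By the rule, members have no same-strand cluster within 2000 nt and upstream sites have one. How far choosing sites by close numbering affects these shares was not tested. There, the distance was -0.111 nt against terminal sites, -0.215 nt against ATTAAA sites and 0.664 nt by width, the partner signal difference 8.92 points, the side -12.1 points at 1 to 50 nt and 2.94 at 1501 to 5000 nt, and the contrast of gaps above 20 kb with 2 to 5 kb -0.12 in width and -0.739 points on the opposite strand. Depth is unknown and limits what the width of a cluster can show.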
